A study of Macaca mulatta with 2 samples.

Results

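Ganglion cell axon and neurofilament genes were followed across the layers of the back of the macaque eye. They were NEFL, NEFM, THY1, SNCG, GAP43 and NRN1, taken by gene symbol as 6 of the 26533 genes and transgenes in the feature list, and all 6 were found in both sections. The material was 2 Visium sections, 1 from NHP1 (5 years) and 1 from NHP2 (6 years), both male rhesus macaques described by the study as wild-type. Each section of 10 µm came from a 4 mm full-thickness punch of the right eye, outside the treated blebs, 12 weeks after subretinal surgery. The eye of NHP1 had received AAV2-CAG-hRPE65 in its blebs, and that of NHP2 had received AAV8-GRK1-hRPGRco and AAV8-GRK1-mScarlet in separate blebs. Both eyes had triamcinolone, and the adalimumab injections of the study were given to the left eyes only. The untreated tissue therefore came from operated, vector-exposed eyes, and no section of an eye without surgery was analysed here.

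Retinal ganglion cells are the output neurons of the retina. Their bodies lie in the innermost nuclear layer, and their axons run over the inner surface of the retina to the optic nerve. Such long axons are filled with neurofilaments, polymers of light (NEFL), medium (NEFM) and heavy (NEFH) subunits that set axon calibre, and with growth and membrane proteins that travel down the axon. NEFL and NEFM mark large projection neurons. SNCG, or gamma-synuclein, is a cytosolic protein used as a ganglion cell marker. THY1 is a glycolipid-anchored surface protein that is used in the retina as a ganglion cell marker and is also carried by fibroblasts. GAP43 is a growth cone protein of extending and regenerating axons. NRN1, or neuritin, is a small membrane-anchored protein that promotes neurite growth.

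The 6 genes lie on 5 chromosomes of the Mmul_10 assembly. NEFM (chr8:25175785-25183571, plus strand) and NEFL (chr8:25216264-25222081, minus strand) are neighbours, 32692 bases apart with 0 protein-coding genes between them. GAP43 is at chr2:160545841-160643851 (minus strand), NRN1 at chr4:164070205-164079772 (plus strand), SNCG at chr9:51065418-51071004 (minus strand) and THY1 at chr14:112476657-112482017 (minus strand). SNCG had the largest share of its UMIs in the inner retina of NHP2, so the 250 bases before its annotated start are shown, from the RefSeq annotation of Mmul_10 and on the strand of the gene. Capitals mark matches, on either strand, to the E-box core CANNTG, the TATA box letters TATAAA or the GC box letters GGGCGG.
SNCG (chr9:51071005-51071254): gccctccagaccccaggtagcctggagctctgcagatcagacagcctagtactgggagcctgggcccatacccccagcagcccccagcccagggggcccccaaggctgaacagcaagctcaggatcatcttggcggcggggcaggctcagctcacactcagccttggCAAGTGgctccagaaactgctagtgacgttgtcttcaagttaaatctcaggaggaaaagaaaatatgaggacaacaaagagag
The window held 1 CANNTG match and neither the TATA box letters nor the GC box letters. Among the 20782 protein-coding promoter windows of the same length, 60.3% held the E-box core, 9.8% the TATA box letters and 43.7% the GC box letters. G and C made up 58.0% of the window against a median of 57.2% over all windows. These letters describe the window only, and no binding or start site was measured.

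NHP1 had 1484784 UMIs (unique molecular identifiers, each 1 captured RNA molecule) in 534 spots over tissue, and NHP2 had 805726 UMIs in 470. The median spot held 1473.5 UMIs in NHP1 and 370.5 in NHP2, and 4 spots of NHP2 held 0. A spot is a small area of tissue with several cells, so levels are given as UMIs of a gene per 10000 UMIs of the same spots. A lower level can stem from fewer cells of a type or from less RNA per cell, which cannot be told apart. Each animal gave 1 section, so no test and no p-value was possible, and the bracketed 95% intervals (exact Poisson for levels, conditional binomial for ratios, Clopper-Pearson for shares of spots) cover counting error only. Over all tissue spots the counts were 559 UMIs for NEFL, 425 for THY1, 412 for SNCG, 183 for NEFM, 130 for NRN1 and 38 for GAP43 in NHP1. They were 313, 454, 144, 71, 74 and 13 in the same order in NHP2. GAP43 therefore carries wide intervals throughout.

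Spots were grouped into regions without the 6 members. Regions are called by their leading genes with a symbol or by the tissue whose marker list was raised in them. Genes without a symbol were passed over, though they ranked higher in regions such as PRPH/PRKAR1B and ACTA2/RIMS2. In NHP1 the inner retina comprised a deep region led by SST and TAC1, neuropeptide genes of amacrine cells (74 spots), and a shallow region led by PRPH and PRKAR1B (62 spots, median 594.5 UMIs). In NHP2 it was a single region of 34 spots led by ACTC1 and NEFH (median 8098.5 UMIs). The inner retina here joins the inner nuclear and ganglion cell layers, which these spots did not separate. In the SST/TAC1 region 8 ganglion cell layer markers and 11 inner nuclear layer markers were raised, and in the ACTC1/NEFH region 9 and 12. Of the 15 listed ganglion cell layer markers, 14 were in the reference and 10 had UMIs in each section. SLC17A6, the vesicular glutamate transporter of ganglion cells, had 165 UMIs in NHP1 and 71 in NHP2, and the ganglion cell RNA-binding protein gene RBPMS had 24 and 5. POU4F1, POU4F2, RBPMS2 and PAX2 had 0 UMIs in both sections, which allows up to 0.0202 per 10000 in NHP1 and 0.0372 in NHP2. The largest part of the list's UMIs came from UCHL1, a ubiquitin hydrolase of neurons (1097 of 3389 in NHP1 and 650 of 1687 in NHP2), which other neurons also express. The ganglion cell label was therefore borne by SLC17A6, RBPMS, the filament genes NEFH, INA and PRPH, and general neuronal genes. The POU4F transcription factors had no part in it.

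Among the tissues, NEFL, the light neurofilament subunit, was highest in the inner retina of both animals. In NHP1 it was at 8.05 UMIs per 10000 (7.27 to 8.88) in the inner retina, 1.74 (1.02 to 2.79) in the sclera, 1.02 (0.757 to 1.35) in the photoreceptor layer and 0.785 (0.339 to 1.55) in the retinal pigment epithelium. The intervals of the last 3 tissues overlapped, and that of the inner retina lay above them. In NHP2 NEFL was at 6.89 (6.13 to 7.73) in the inner retina, 1.80 (0.218 to 6.51) in the pigment epithelium, 0.519 (0.224 to 1.02) in the sclera and 0.379 (0.152 to 0.781) in a region led by SLC39A12 and OPN1LW, where 17 photoreceptor and 10 pigment epithelium markers were raised. The pigment epithelium value rested on 2 UMIs, and its interval reached into that of the inner retina, while the other tissues lay below it. The inner retina held 94.2% of all NEFL UMIs of NHP2 tissue against 53.1% of all UMIs, and 70.3% against 32.9% in NHP1. NEFL was detected in 52.2% of inner retina spots in NHP1 and 70.6% in NHP2.

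NEFM, the medium subunit, followed NEFL at a lower UMI count. It was at 2.50 UMIs per 10000 (2.07 to 2.98) in the inner retina of NHP1 and 1.52 (1.17 to 1.94) in that of NHP2. Outside the inner retina it was at 0.612 (0.468 to 0.786) and 0.159 (0.0583 to 0.346). The 2 subunits assemble together in the axon, and their UMI ratio could be compared where both had counts. NEFL had 3.22 UMIs (2.62 to 3.98) for each NEFM UMI in the inner retina of NHP1, 4.17 (2.19 to 8.60) in its photoreceptor layer and 4.54 (3.46 to 6.03) in the inner retina of NHP2, and these intervals overlapped. In the ACTA2/RIMS2 region of NHP1, which had no tissue class, the ratio was lower, at 2.1 (1.43 to 3.12), and its interval lay below that of the inner retina of NHP2 but overlapped that of NHP1. The counts are of 3′ ends, so the ratio describes captured molecules and not the stoichiometry of the proteins.

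SNCG was at 5.04 UMIs per 10000 (4.43 to 5.71) in the inner retina of NHP1 and 3.27 (2.75 to 3.86) in that of NHP2. It was the member most restricted to the inner retina in NHP2, where 140 of its 144 tissue UMIs lay in the ACTC1/NEFH region. In the 35 spots of the SLC39A12/OPN1LW region it had 0 UMIs, which allows up to 0.163 per 10000. Its inner retina level was at least 20.1-fold higher when set against that limit, and the conditional binomial lower bound, which also counts the error of the inner retina level, was 16.2-fold. In the 220 sclera spots of NHP2 it also had 0, which allows up to 0.194. In NHP1 the separation was weaker. SNCG was at 0.755 (0.532 to 1.04) in the photoreceptor layer, 1.37 (0.751 to 2.31) in the pigment epithelium and 3.18 (2.16 to 4.52) in the sclera, the last with an interval that reached into that of the inner retina.

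All 31 SNCG UMIs in the sclera of NHP1 came from 19 of the 99 spots of 1 region, led by ANGPTL7 and TRIM29. The other sclera region of NHP1, led by CHAD and CFB, had 0 SNCG UMIs in 29 spots, which allows up to 1.48 per 10000. The 19 spots also carried 12 of the 16 NEFL UMIs of that region, and 34188 of its 77175 UMIs. Their photoreceptor markers were at 167 UMIs per 10000 against 105 in the other 80 spots of the region and 10.4 in the CHAD/CFB region. Their ganglion cell layer markers were at 21.1 against 10.2 and 4.94, and their sclera markers at 110 against 272 and 689. These 19 spots were also deeper, with a median of 1200 UMIs against 393.5 in the other 80, and a deeper spot is more likely to show an SNCG UMI. The part of retinal RNA and of depth in the SNCG counts was not tested.

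NRN1 and GAP43, the growth-related members, also had their highest levels among the tissues in the inner retina. NRN1 was at 1.99 UMIs per 10000 (1.61 to 2.42) in the inner retina of NHP1 and 0.245 (0.127 to 0.428) in its photoreceptor layer. In NHP2 it was at 1.57 (1.21 to 1.99) in the inner retina and 0.108 (0.0131 to 0.391) in the SLC39A12/OPN1LW region. GAP43 was at 0.532 (0.348 to 0.780) in the inner retina of NHP1 and 0.280 (0.145 to 0.490) in that of NHP2. GAP43 had 0 UMIs in the pigment epithelium of both animals and in the sclera of NHP1, and 1 UMI in the sclera of NHP2. With so few molecules the order of GAP43 among the tissues other than the inner retina could not be read.

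THY1 differed from the other members. In NHP1 it was at 4.26 UMIs per 10000 (3.70 to 4.88) in the inner retina, 0.776 (0.549 to 1.06) in the photoreceptor layer, 0.982 (0.471 to 1.81) in the pigment epithelium and 9.24 (7.43 to 11.4) in the sclera. In NHP2 it was at 3.72 (3.16 to 4.34) in the inner retina, 0.433 (0.187 to 0.854) in the SLC39A12/OPN1LW region, 1.80 (0.218 to 6.51) in the pigment epithelium and 17.6 (15.5 to 19.8) in the sclera. The scleral level was the higher per UMI in both animals. In NHP1 the photoreceptor layer and the pigment epithelium lay below both the inner retina and the sclera. In NHP2 the SLC39A12/OPN1LW region did, while the pigment epithelium value rested on 2 UMIs and its interval covered the inner retina. Of all THY1 UMIs over NHP2 tissue, 59.7% lay in the sclera and 35.0% in the inner retina. In NHP1 the shares were 21.2% and 48.9%.

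**Figure D1:**
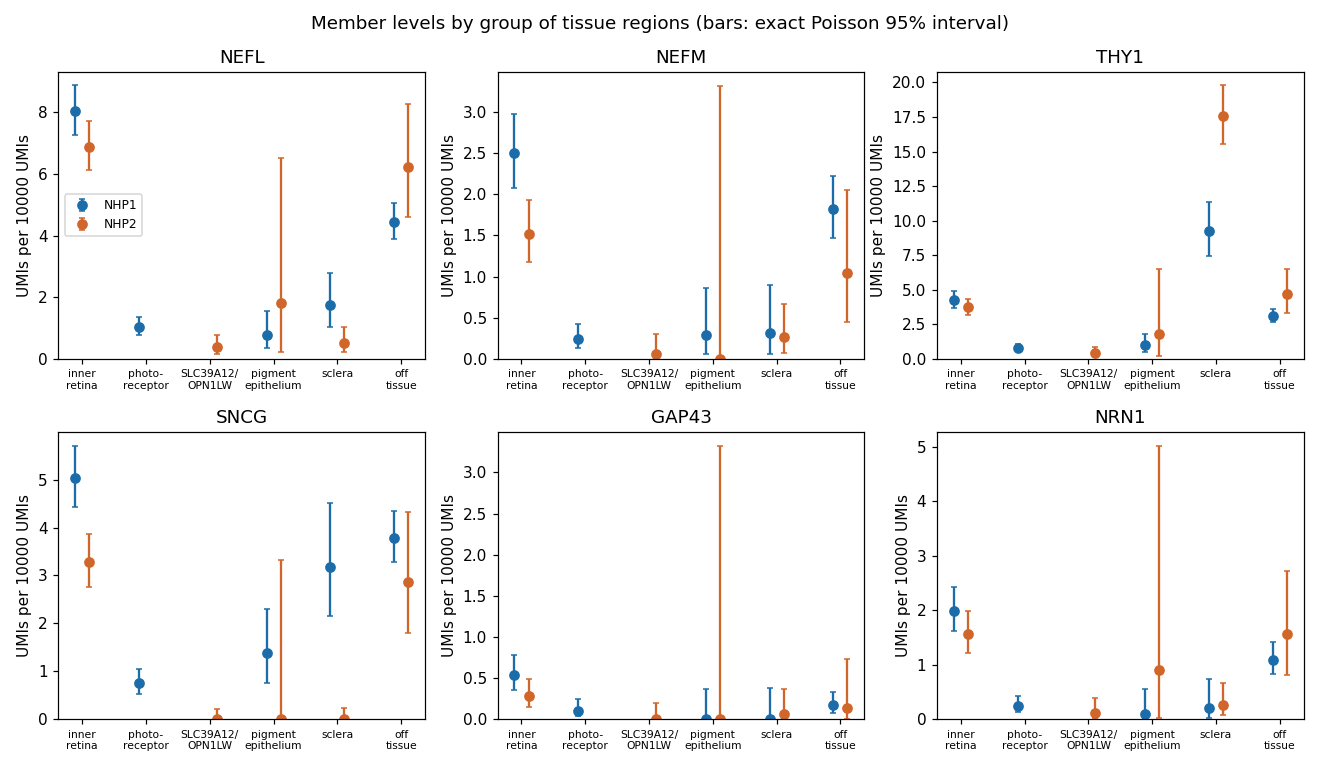
Level of each member (UMIs per 10000 UMIs, linear axis from 0) in groups of tissue regions and in spots off tissue, for NHP1 (blue) and NHP2 (orange); points are summed levels and bars exact Poisson 95% intervals. Among the groups of tissue regions NEFL, NEFM, GAP43 and NRN1 are highest in the inner retina, but in NHP2 their intervals off tissue (NEFL 6.24) and in the inner retina (NEFL 6.89) overlap. SNCG is at 0 in the sclera of NHP2 and at 3.18 in that of NHP1, and THY1 is highest in the sclera (9.24 and 17.6).

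The inner retina was next set against the rest of the tissue. NEFL was 4.83-fold higher (4.02 to 5.83) in NHP1 and 14.5-fold higher (8.99 to 24.7) in NHP2. SNCG was 3.02-fold (2.47 to 3.70) and 30.9-fold higher (11.8 to 115), NRN1 6.00-fold (4.00 to 9.19) and 8.45-fold (3.88 to 21.8), NEFM 4.08-fold (2.98 to 5.64) and 9.56-fold (4.16 to 27.0). GAP43 was 4.42-fold (2.15 to 9.62) and 10.6-fold higher (1.57 to 453), the last resting on 12 UMIs against 1. With spots classed by marker list, GAP43 in NHP1 was at 10.5 (3.75 to 40.8) and NEFM in NHP2 at 14.7 (6.01 to 46.9). In each section 5 of the 6 members were at least 2-fold higher in the inner retina, or 4 of the 5 with at least 50 UMIs (GAP43 had fewer), where 5.35% of the 5311 genes with at least 50 UMIs were in NHP1 and 11.9% of 3453 in NHP2. The median ratio was 4.25 over the members and 0.963 over those genes in NHP1, and 10.1 and 1.07 in NHP2. The exception was THY1, with a ratio of 1.96 (1.61 to 2.38) for NHP1 against 0.476 (0.390 to 0.579) for NHP2. Its NHP1 ratio moved with the setting, to 3.11 (2.41 to 4.02) in the tissue piece with the most UMIs and 1.53 (1.26 to 1.86) with spots classed by marker list. Counted per spot, THY1 was higher in the inner retina of both, by 2.81 times in NHP1 and 6.91 times in NHP2. Among all genes 8.25% in NHP1 and 10.6% in NHP2 were at least 2-fold lower in the inner retina, and THY1 in NHP2 was the 1 member there. The sclera made up 9.78% of the UMIs outside the inner retina in NHP1 and 40.8% in NHP2.

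Within the retina all 6 members, THY1 included, fell off towards the photoreceptors. In NHP1 the level in the inner retina was 5.22-fold (GAP43) to 10.2-fold (NEFM) that in the photoreceptor layer, with THY1 at 5.49-fold (3.87 to 7.98), where 6.0% of 3969 genes were at least 2-fold higher. In NHP2, where no region was classed as photoreceptor layer alone, the comparison with the SLC39A12/OPN1LW region gave 18.2-fold (8.71 to 45.6) for NEFL, 28.0-fold (4.86 to 1124) for NEFM, 14.5-fold (3.85 to 122) for NRN1 and 8.57-fold (4.25 to 20.2) for THY1. GAP43 had 0 UMIs in that region and was at least 1.73-fold higher against the limit of 3 UMIs, with a conditional binomial lower bound of 1.20-fold. In this comparison 12.5% of 2599 genes were at least 2-fold higher and 8.81% at least 2-fold lower, against 10.0% lower in the photoreceptor comparison of NHP1, and 0 members were lower in either.

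Regions cut the retina into steps, so the members were also followed along a continuous measure that used none of them. For each spot with at least 20 UMIs of retinal layer markers, a share was taken. It was that of photoreceptor markers among photoreceptor, inner nuclear and ganglion cell layer markers, from 0 (inner) to 1 (outer). Some pigment epithelium spots of NHP1 also had low shares, so a low share is not inner retina alone. Summed over the 6 members, the level in NHP1 was 25.2 UMIs per 10000 (23.5 to 27.1) at shares under 0.25, then 14.6, 8.04 and 3.61 (3.05 to 4.24) in the following bins of 0.25. In NHP2 it was 23.3 (20.7 to 26.0), 20.1, 4.77 and 1.23 (0.780 to 1.85), over only 12, 12, 16 and 28 spots. All 6 members in NHP1 and 5 in NHP2 were at least 2-fold lower in the outermost bin than in the innermost, while GAP43 in NHP2 had 1 UMI against 0. Only 5 members in NHP1 and 3 in NHP2 (NEFL, THY1 and SNCG) had the 50 UMIs required of the genes they are read against. At least 2-fold higher innermost levels were found for 10.8% of 2839 genes in NHP1 and 12.7% of 1255 in NHP2, and lower ones for 14.0% and 18.5%.

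The shape of the decline differed in detail. NEFL fell at every step in NHP1, from 9.43 UMIs per 10000 to 4.86, 2.14 and 1.01, with intervals that did not overlap between neighbouring bins. In NHP2 NEFL stayed level over the inner bins, at 8.78 (7.26 to 10.5) and 7.81 (6.62 to 9.15), and then dropped to 1.66 (0.964 to 2.65) and 0.428 (0.185 to 0.843). NEFM, NRN1 and GAP43 in NHP2 had their highest value in the second bin, with intervals that overlapped those of the innermost. SNCG fell from 5.66 (4.84 to 6.58) to 1.03 (0.743 to 1.39) in NHP1 and from 4.65 (3.57 to 5.96) to 0 of 28 spots in NHP2. The innermost bin of NHP2 held 2 spots of sclera regions. That of NHP1 held pigment epithelium spots, with shares such as 0.083 and 0.185.

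**Figure D2:**
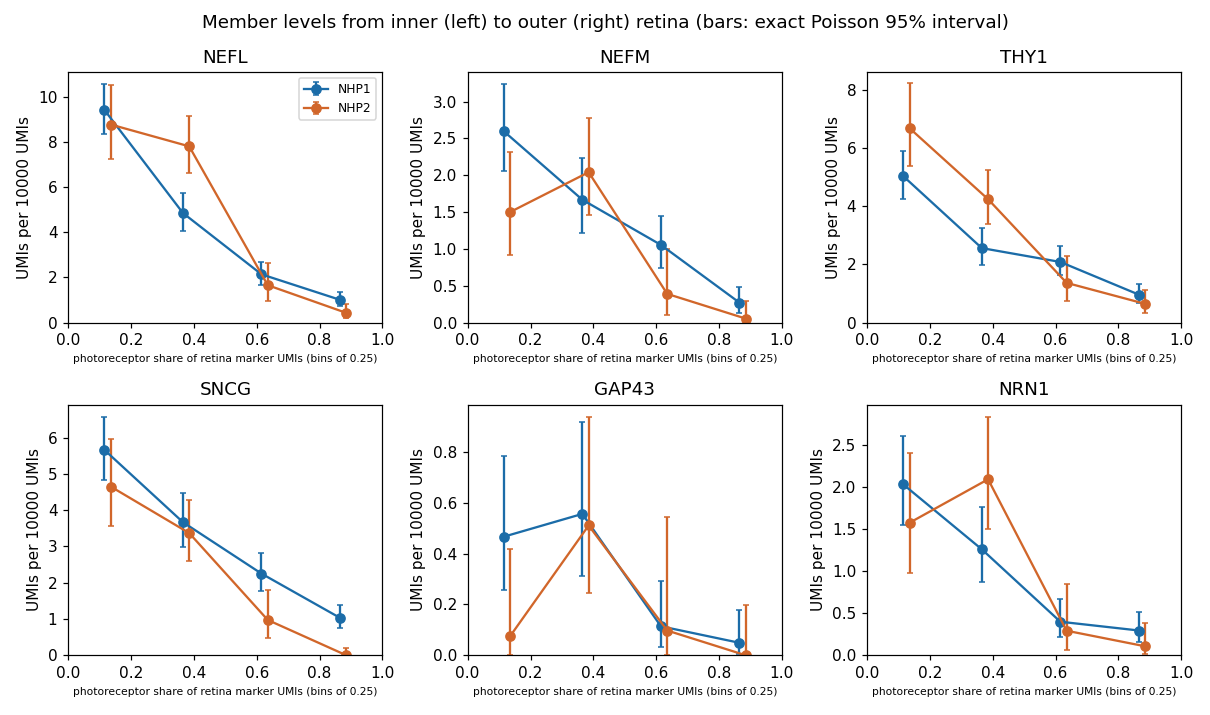
Level of each member (UMIs per 10000 UMIs) against the photoreceptor share of retinal marker UMIs in 4 bins of 0.25, low shares on the left. NHP1 is blue and NHP2 orange, with exact Poisson 95% intervals. NEFL goes from 9.43 to 1.01 in NHP1 and from 8.78 to 0.428 in NHP2, and GAP43 in NHP2 rests on 1 UMI in the first bin and 0 in the last.

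Spots with a photoreceptor share under 0.5 were next split at the median share of ganglion cell layer markers, a split chosen after the data had been seen. Not all of them lay in the inner retina regions: 6 of the 44 spots above the median and 20 of the 45 below it in NHP1, and 0 of 11 and 3 of 12 in NHP2, were of other regions. The ganglion cell layer list holds NEFH, INA and PRPH, filament genes like NEFL and NEFM, and also STMN2 and TUBB3. NEFH, STMN2 and TUBB3 were among the genes most like NEFL or SNCG over spots. Higher NEFL, NEFM and SNCG above the median were therefore partly built into the split. In NHP1 the 44 spots above the median had 5.00 times (3.72 to 6.85) the NEFL level of the 45 below it, 11.2 against 2.24 UMIs per 10000. THY1 stood at 4.73 times (3.17 to 7.32), NRN1 at 5.28 (2.80 to 11), NEFM at 4.43 (2.64 to 7.88) and SNCG at 3.38 (2.45 to 4.75). GAP43 stood at 1.94 (0.783 to 5.47), an interval that includes 1. These ratios were again read against 3.03% of 2143 genes at least 2-fold higher and 4.29% at least 2-fold lower. In NHP2 only 11 spots lay above and 12 below. There NRN1 had 61 UMIs against 1, NEFL stood at 4.35 times (3.04 to 6.39), SNCG at 6.26 (3.45 to 12.5) and NEFM at 3.67 (1.79 to 8.48), where 3.98% of 1205 genes were at least 2-fold higher and 6.31% at least 2-fold lower. THY1 stood at 1.60 (1.13 to 2.29) and GAP43 at 1.13 (0.288 to 5.28). Other markers moved with the split. Fibroblast markers had a ratio of 0.550 (0.381 to 0.789) for NHP1 and 0.207 (0.145 to 0.290) for NHP2, inner nuclear layer markers at 0.614 and 0.610, and photoreceptor layer markers at 0.707 and 0.578. Of the 144 fibroblast marker UMIs below the median in NHP2, 90 lay in 1 sclera spot. With both sets of spots kept to the inner retina regions, THY1 had a ratio of 3.64 (2.33 to 5.96) for NHP1 and 2.35 (1.56 to 3.65) for NHP2, and fibroblast markers at 0.909 (0.550 to 1.54) and 0.549 (0.361 to 0.835). NEFL was then at 3.88 (2.79 to 5.54) and 4.09 (2.86 to 6.01). The part of the other cell types in these ratios was not tested.

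The members were unevenly spread over inner retina spots. Among the 80 inner retina spots of NHP1 with at least 1000 UMIs, the level of NEFL ranged from 0 to 30.1 UMIs per 10000 with a median of 5.37, and 22 spots had none. The summed members ranged from 0 to 61.2 with a median of 16.1. In the 34 spots of NHP2 the sum ranged from 0 to 48.8 with a median of 12.5, and 5 spots had none. The highest sums per UMI came from shallow spots, on 8 member UMIs of 1307 in NHP1 and 8 of 1639 in NHP2. The spot with the most UMIs in NHP2 (50457) held 68 NEFL, 38 THY1, 34 SNCG, 27 NRN1, 18 NEFM and 1 GAP43 UMIs, and the deepest inner retina spot of NHP1 (30011 UMIs) held 48, 27, 14, 10, 12 and 2. The NHP2 spot gave 23.1% of the NEFL and 40.3% of the NRN1 UMIs of its inner retina, but 11.8% of all UMIs there. Without this spot NRN1 in NHP2 was 5.72-fold higher (2.53 to 15.1) in the inner retina than in the rest, and NEFL 12.6-fold (7.80 to 21.7).

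**Figure D3:**
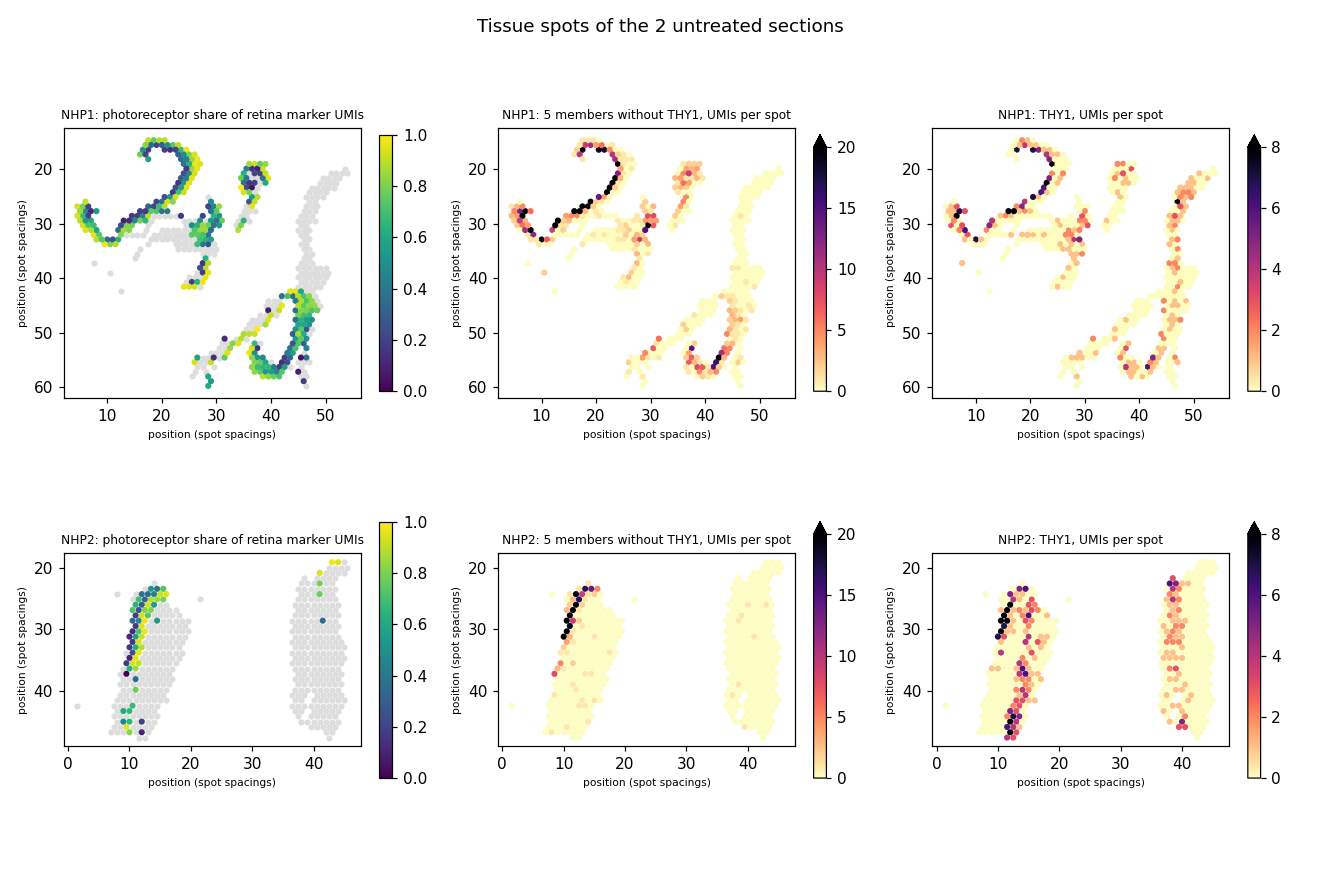
Tissue spots of NHP1 (top) and NHP2 (bottom) at their positions in spot spacings, coloured by the photoreceptor share (grey, under 20 retinal marker UMIs), by UMIs per spot summed over the 5 members other than THY1, and by THY1 UMIs per spot. The 5 members form a thin band along the inner edge of the retina (low photoreceptor share). THY1 lies on that band and also along spots with under 20 retinal marker UMIs.

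How far members shared spots differed by pair. Over the 509 spots of NHP1 with at least 200 UMIs, NEFL and SNCG shared 100 spots, which were 62.9% of the NEFL spots and 64.1% of the SNCG spots, with a Pearson r of 0.48 across spots. NEFL and NEFM shared 65 spots, or 40.9% and 72.2%, with an r of 0.45. In the 306 such spots of NHP2 r was 0.47 for NEFL with SNCG and 0.36 for NEFL with NEFM. THY1 stood apart in NHP2, with an r of 0.01 to NEFL, 0.02 to NEFM, -0.04 to SNCG and -0.02 to NRN1, while in NHP1 its r to NEFL was 0.21 and to SNCG 0.20. The GAP43 pairs of NHP1 with the other 4 members were lower, at 0.13 to 0.18, and THY1 with NRN1 was at 0.09. These coefficients describe spots that share a library and a range of depths.

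By the same measure, the genes most like NEFL over spots of both sections were NEFH, the heavy neurofilament subunit (r 0.46 in NHP1 and 0.53 in NHP2), STMN2, a regulator of axonal microtubules (0.42 and 0.42), and CPLX1, a presynaptic complexin (0.40 and 0.41), among 1561 genes compared. Those most like SNCG were TUBB3, the neuronal beta-tubulin (0.45 and 0.46), NEFH (0.39 and 0.61) and YWHAH, a 14-3-3 protein (0.38 and 0.41). Those most like THY1 were ANGPTL7 (0.33 and 0.48), PI16 (0.30 and 0.46) and MYOC (0.30 and 0.49), secreted products of the connective tissue of the eye that were on the sclera marker list. The sum of all 6 members gave weaker matches, led by GNAS (0.25 and 0.22), DKK3 (0.21 and 0.21) and NEFH (0.32 and 0.21). The other 7 were CALM3, CRABP1, CAPNS1, YWHAH, UCHL1, AK1 and TUBB2B. With THY1 left out of the sum, a choice made after seeing the data, the leading matches were TUBB3 (0.45 and 0.47), the calcium-binding protein gene PVALB (0.45 and 0.47) and NEFH (0.42 and 0.50).

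The sclera comparison separated THY1 from the other members. THY1 was 2.17-fold higher (1.68 to 2.79) in the sclera than in the inner retina of NHP1 and 4.73-fold higher (3.87 to 5.79) in NHP2, where 7.43% of 2302 and 13.5% of 2503 genes were at least 2-fold higher in the sclera and 18.9% and 33.6% at least 2-fold lower. NEFL in the sclera was at 0.217 (0.125 to 0.352) of its inner retina level in NHP1 and 0.0752 (0.0322 to 0.150) in NHP2. NEFM was at 0.123 (0.0251 to 0.369) and 0.171 (0.0452 to 0.458), NRN1 at 0.103 (0.0123 to 0.384) and 0.166 (0.0439 to 0.444), and SNCG at 0.632 (0.420 to 0.920) in NHP1. Sclera spots are shallow, and counted per spot rather than per UMI the THY1 order turned round, to 0.460 in NHP1 and 0.263 in NHP2. In the tissue piece of NHP1 with the most UMIs, the ratio was 1.20 (0.779 to 1.79).

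THY1 varied among the sclera regions. In NHP1 it was at 20.2 UMIs per 10000 (14.5 to 27.5) in the CHAD/CFB region, where 24 of 29 spots had a THY1 UMI, and at 6.35 (4.70 to 8.39) in the ANGPTL7/TRIM29 region, where 31 of 99 did. In NHP2 it was at 18.5 (16.0 to 21.3) in a region led by MBP and MIA-RAB4B, at 15.4 (12.1 to 19.3) in one led by HBA and CLEC3B, and at 22.5 (7.32 to 52.6) in the very shallow PZP/COL1A2 region, on 5 UMIs. The regions of NHP2 did not differ beyond their intervals, and those of NHP1 did. The 5 other members together were at 0.494 to 6.74 UMIs per 10000 in these regions.

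Markers of several cell types moved with THY1 across these tissues. All 5 fibroblast markers had UMIs in both sections, and their sum was at 73.7 UMIs per 10000 in the ANGPTL7/TRIM29 region and 229 in the CHAD/CFB region against 1.87 and 8.19 in the inner retina regions of NHP1. In NHP2 it was at 176 to 224 in the sclera regions against 3.27 in the inner retina. Of these markers COL1A1, COL1A2, DCN and LUM were also on the sclera list that classed the sclera regions. The high fibroblast sum there was therefore fixed in part by the classing. Pericyte and smooth muscle markers were at 6.77 (5.24 to 8.62) in the sclera against 1.72 in the inner retina of NHP1, and at 9.53 (8.05 to 11.2) against 1.14 in NHP2. Markers of Schwann cells, the glia of nerves outside the retina, were at 4.52 (3.28 to 6.06) against 2.58 and at 7.52 (6.21 to 9.02) against 3.34. Their myelin gene MBP had 0 UMIs in the sclera of NHP1, and 12 UMIs in 6 spots of that of NHP2. The part of each of these cell types in the THY1 level was not tested.

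**Figure D4:**
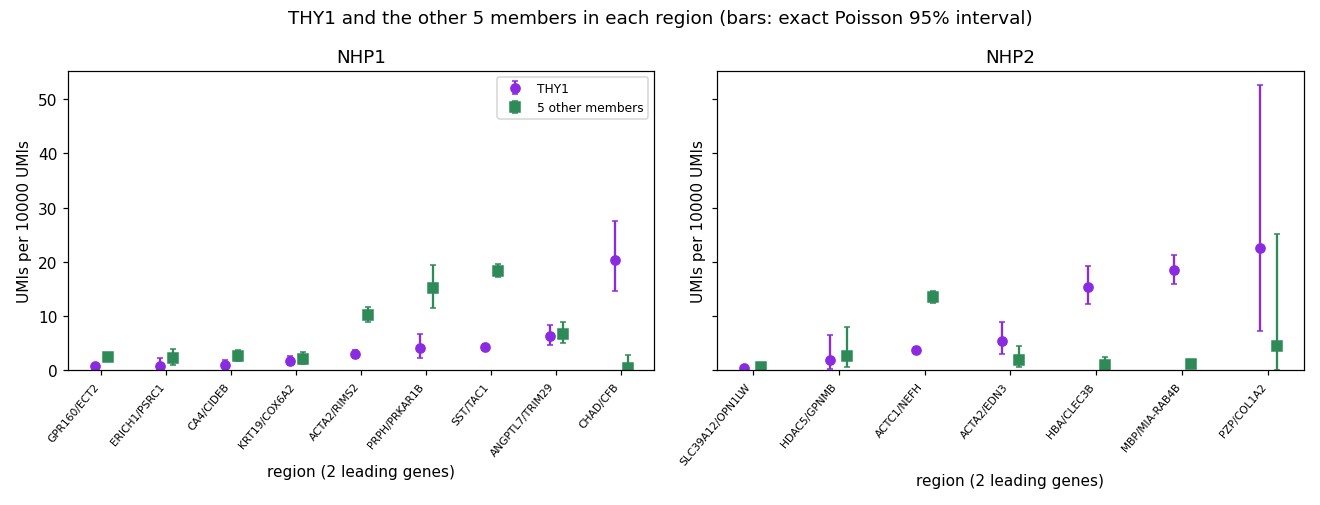
THY1 (violet circles) and the other 5 members summed (green squares), in UMIs per 10000 UMIs, in each region of NHP1 (left) and NHP2 (right), ordered by the THY1 level, with exact Poisson 95% intervals. The 5 members peak in the SST/TAC1, PRPH/PRKAR1B and ACTC1/NEFH regions, while THY1 peaks in CHAD/CFB (20.2) and in the regions led by HBA, MBP and PZP (15.4 to 22.5).

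Regions without a tissue class held a further part of the members. The ACTA2/RIMS2 region of NHP1 (52 spots) had raised markers of the photoreceptor layer and of the choroid, 3 of each. It carried NEFL at 3.90 UMIs per 10000 (3.12 to 4.82), SNCG at 3.45 (2.72 to 4.32), THY1 at 2.95 (2.28 to 3.76) and NEFM at 1.86 (1.34 to 2.53), levels between those of the inner retina and the photoreceptor layer. It held 22.4% of all NEFM UMIs of NHP1 tissue against 14.8% of all UMIs. The KRT19/COX6A2 region, with pigment epithelium, choroid and sclera markers, had NEFL at 0.575 (0.187 to 1.34) and THY1 at 1.61 (0.881 to 2.70). In NHP2 the ACTA2/EDN3 region had THY1 at 5.32 (2.91 to 8.93), with an interval that covered the inner retina level of 3.72, and 1 NEFL UMI.

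Spots off tissue also held member RNA. In NHP1 NEFL was at 4.97 UMIs per 10000 (4.32 to 5.69) within 3 spot spacings of tissue and at 2.29 (1.45 to 3.43) beyond, and SNCG was at 4.31 (3.70 to 4.98) and 1.59 (0.910 to 2.58). In NHP2 NEFL was at 6.93 (4.97 to 9.40) and 3.95 (1.59 to 8.14), and SNCG at 3.55 (2.20 to 5.42) and 0.565, the last on 1 UMI. Per spot these are small, with 233 NEFL UMIs over 4284 spots off tissue in NHP1. Their share of the RNA off tissue was nonetheless above that in the photoreceptor layer of NHP1, where NEFL was at 1.02 and SNCG at 0.755. SNCG in the sclera of NHP1, at 3.18, lay between its off-tissue levels within and beyond 3 spot spacings. NEFL and SNCG in the photoreceptor layer of NHP1 were no higher than what RNA off tissue carried. Low member levels outside the inner retina are not read as expression there. In NHP2 the same holds per UMI for the inner retina itself, where the level of each of the 6 members lay within its interval off tissue, such as NEFL at 6.89 against 6.24 (4.602 to 8.275) and NRN1 at 1.57 against 1.56 (0.806 to 2.73). NEFL was found in 52.2% of inner retina spots (median 1468.5 UMIs) and 2.45% of spots off tissue (median 8 UMIs) in NHP1, and in 70.6% (median 8098.5) and 0.546% (median 4) in NHP2. At such unequal depths these shares would differ even at equal levels per UMI, and nothing is read from them. THY1 in the sclera (9.24 and 17.6) was above its level off tissue of 3.12 (2.66 to 3.63) in NHP1 and 4.68 (3.28 to 6.48) in NHP2.

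The share of spots that showed a member was also counted at equal depth. At least 1 member UMI was found in 59.7% of tissue spots of NHP1 (55.4 to 63.9) and 37.9% of those of NHP2 (33.5 to 42.4). When every spot with at least 200 UMIs was thinned to 200, the shares were 18.5% (15.2 to 22.1) of 509 spots and 23.9% (19.2 to 29.0) of 306. By tissue, thinned spots with THY1 made up 21.6% (14.4 to 30.4) of the sclera and 6.15% (2.69 to 11.8) of the inner retina in NHP1, and 28.7% (22 to 36.1) and 2.94% (0.0744 to 15.3) in NHP2. Thinned spots with NEFL made up 15.4% (9.66 to 22.8) of the inner retina and 2.70% (0.561 to 7.70) of the sclera in NHP1, and 11.8% (3.30 to 27.5) and 0.585% (0.0148 to 3.21) in NHP2. At equal depth NEFL was therefore found in a larger share of inner retina than of sclera spots in both sections, and THY1 the reverse. In NHP2 thinned NEFL was in 0 of 21 pigment epithelium spots (up to 16.1%) and 0 of 80 spots without a class (up to 4.51%). Those intervals overlapped that of the inner retina.

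Between the animals, the inner retina of NHP2 was at or below that of NHP1 for every member. The ratio of NHP2 to NHP1 was 0.857 (0.734 to 0.999) for NEFL, 0.608 (0.443 to 0.828) for NEFM, 0.649 (0.524 to 0.802) for SNCG, 0.872 (0.705 to 1.08) for THY1, 0.788 (0.568 to 1.09) for NRN1 and 0.527 (0.242 to 1.08) for GAP43. Marker lists moved in the same comparison, with ganglion cell layer markers at 0.851 (0.796 to 0.911), inner nuclear layer markers at 0.807 (0.771 to 0.845) and photoreceptor layer markers at 1.63 (1.55 to 1.72) times the NHP1 level. Their part in the ratios of the members was not tested. Over the neural retina regions, which take in photoreceptor regions of NHP1 and none of NHP2, the ratio was 1.52 (1.31 to 1.77) for NEFL, 1.48 (1.20 to 1.81) for THY1, 1.41 (1.02 to 1.92) for NRN1, 1.13 (0.917 to 1.39) for SNCG, 1.11 (0.812 to 1.502) for NEFM, 0.885 (0.414 to 1.77) for GAP43 and 1.35 (1.23 to 1.48) for the 6 summed. With the inner retina regions alone none of the 6 reached 2-fold in either direction, where 3.31% of 3711 genes were at least 2-fold higher and 0.97% at least 2-fold lower in NHP2. THY1 in the sclera went the other way, at 1.90 (1.49 to 2.44) times the NHP1 level. Fibroblast markers there were at 1.98 (1.85 to 2.13) times, Schwann cell markers at 1.66 (1.17 to 2.41), pericyte and smooth muscle markers at 1.41 (1.05 to 1.91) and photoreceptor layer markers at 0.249 (0.221 to 0.279). Their part in the THY1 ratio was not tested either. Animal, vector, library depth and the makeup of the section differ together in these ratios and cannot be told apart.

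The wider set of axonal cytoskeleton and transport genes was set beside the members. Of 46 listed genes, 1 was absent from the reference, 21 had under 50 UMIs in a section and 24 could be compared. Of these 24, 13 were at least 2-fold higher in the inner retina than in the rest in NHP1 and 18 in NHP2, the 13 being among the 18, and 0 were at least 2-fold lower, where 5.35% of all genes in NHP1 and 11.9% in NHP2 were at least 2-fold higher. The median ratio was 2.01 in NHP1 and 3.94 in NHP2. Because 7 of the 24 were on the marker lists that classed the regions, the other 17 were also counted by themselves. Of these 17, 8 in NHP1 and 12 in NHP2 were at least 2-fold higher, with medians of 1.82 and 3.25. Only the 6 members were kept out of the clustering, so all 24 could shape the regions and their ratios are descriptions. NEFH, STMN2, UCHL1, INA, PRPH and TUBB3 were also on the ganglion cell layer list that classed the regions, and VIM on the inner nuclear layer list.

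The neurofilament partner NEFH, which led the ACTC1/NEFH region of NHP2, was at 3.77 UMIs per 10000 in the inner retina and 0.994 outside it in NHP1, a ratio of 3.79 (2.95 to 4.89), and at 3.06 and 0.0529 in NHP2, a ratio of 57.8 (15.7 to 482). The microtubule regulator STMN2, also among the leading genes of that region, was at 4.13 (3.29 to 5.22) and 16.9 (7.98 to 42.8), and the ubiquitin hydrolase UCHL1 at 3.54 (3.13 to 4.01) and 6.67 (5.24 to 8.58). The other intermediate filament genes had lower ratios than NEFH. INA, or alpha-internexin, was at 1.90 (1.65 to 2.18) and 4.05 (3.13 to 5.32), and PRPH, or peripherin, at 2.24 (1.5 to 3.34) and 5.67 (2.54 to 14.9). VIM was at 1.47 (1.34 to 1.62) and 1.45 (1.24 to 1.71). In NHP1 the PRPH interval overlapped that of NEFH. The motor genes KIF1A, a kinesin, and DYNC1H1, the dynein heavy chain, were at 1.76 (1.42 to 2.19) and 2.01 (1.39 to 2.93), and at 1.47 (1.03 to 2.08) and 1.77 (1.02 to 3.14). The lowest of the 24 in NHP1 was DYNLL1. This dynein light chain was at 0.886 (0.743 to 1.05) and 1.29 (1.06 to 1.56), the spectrin SPTAN1 at 1.17 (0.986 to 1.38) and 1.55 (1.23 to 1.96), and TUBA1A, an alpha-tubulin, at 1.35 (1.26 to 1.44) and 1.35 (1.23 to 1.49). THY1 (0.476) lay below all 24 in NHP2.

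**Figure D5:**
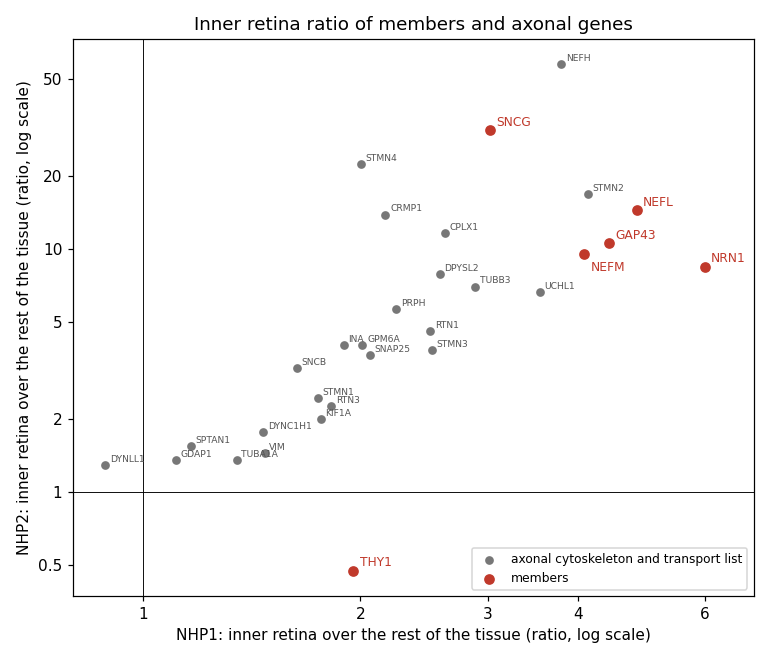
Ratio of the level in the inner retina to that in the rest of the tissue, NHP1 (horizontal) against NHP2 (vertical), both on log scales, for the 6 members (red) and 24 axonal cytoskeleton and transport genes (grey). NEFH (3.79 and 57.8) and STMN2 (4.13 and 16.9) are high in both, the other listed genes spread from 0.886 (DYNLL1) in NHP1 upwards, and THY1 (1.96 and 0.476) is the point below 1 in NHP2.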

How the data were processed

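Visium sections of NHP1 and NHP2 (1 each) were analysed. The values the authors deposited are unnormalized counts of UMIs for each gene in each spot, made with Space Ranger 2.1.0 (from the submitters' processing notes) against Mmul_10 with transgenes added, and the labels describe the tissue both as fresh frozen and as PFA-fixed. The authors' table of spatial statistics was not used. Spots marked as tissue were clustered within each section in Python 3.11.15 with scanpy 1.11.5 and leidenalg 0.10.2, without the members (2000 variable genes, 20 components, 15 neighbours, resolution 1). A region took the class with the largest share of its markers raised 1.5-fold with at least 3 UMIs, if at least 3 were. It took none where more of its 10 leading genes marked another class, where it was shallow with no class marker among them, or where another class had as many raised markers; this last rule was added later and decided the ACTA2/RIMS2 region, which lies outside the inner retina either way. Leading genes needed 10 UMIs. The members and gene lists were chosen with earlier results of these data known. Named genes were the members, the 3 genes most like each member with 100 UMIs, the 10 most like their sum, region leaders, and listed axonal genes with 50 UMIs in each section; other names were chosen after their values were seen. Levels are sums of counts per 10000 UMIs. The ratio method was tested on simulated counts. The sections share 4341 spot barcodes, which are slide positions. Protein sequences were not used here.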

Additional observations from a re-analysis of the deposited data

Results flagged for a closer look

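THY1 was the member whose ratio of inner retina to the rest of the tissue pointed in opposite directions in the 2 animals. It was 1.96 (1.61 to 2.38) in NHP1 and 0.476 (0.390 to 0.579) in NHP2, and the difference was not tested, since each animal gave 1 section. The sclera, where THY1 was at 9.24 and 17.6 UMIs per 10000, made up 9.78% of the UMIs outside the inner retina in NHP1 and 40.8% in NHP2. Counted per spot the directions were the same, at 2.81 in NHP1 and 6.91 in NHP2. Against the outer retina alone, THY1 in the inner retina was 5.49-fold higher in NHP1 (photoreceptor layer) and 8.57-fold higher in NHP2 (SLC39A12/OPN1LW region).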

How the results depend on the processing

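No paired analysis was possible because each animal gave 1 section and no result came from a test. For the 6 members summed, the inner retina stood at 3.40 times the rest in NHP1, and at 3.77 at clustering resolution 0.5, 3.01 with spots classed by marker list, 4.88 per spot, 4.14 in the tissue piece with the most UMIs and 4.12 without THY1. In NHP2 it stood at 1.97, and at 2.37 with spots classed by marker list, 28.6 per spot, 1.67 without the deepest spot and 14.2 without THY1; resolution 0.5 gave no inner retina group there. THY1 in the sclera against the inner retina turned round per spot, to 0.460 in NHP1 and 0.263 in NHP2, and was 1.20 in the piece of NHP1 with the most UMIs. THY1 in the inner retina of NHP2 against the rest was 6.91 per spot. The ratio of NHP2 to NHP1 for the 6 members, 0.771 in the inner retina, was 0.445 without the 4 inner retina spots of NHP2 with the most member UMIs, a choice that lowers it by construction. Over the neural retina regions, which in NHP2 held no photoreceptor region, it was 1.35, and 1.52 for NEFL, 1.48 for THY1, 1.41 for NRN1, 1.11 for NEFM and 1.13 for SNCG. With spots classed by marker list, GAP43 in the inner retina of NHP1 went from 4.42 to 10.5 times the rest and NEFM in NHP2 from 9.56 to 14.7. The share of spots with a member UMI went from 59.7% to 37.6% at 2 or more UMIs and 18.5% thinned in NHP1, and from 37.9% to 22.3% and 23.9% in NHP2. Of the 10 genes most like the sum, 5 were shared with Spearman's rho, 3 within the neural retina and 3 without THY1. Of the other alternatives for the 6 members summed and for THY1 in the sclera, 18 stayed within the counting interval or the allowed margin. The choices made after seeing the data were leaving out THY1 or the deepest spot, the split by ganglion cell markers, with and without spots of other regions, and the axis without sclera spots. The cause of these shifts was not tested, except that counting per spot replaces the UMI total, which differs between tissues. Low counts limited what could be read for GAP43 (38 and 13 UMIs) and for the pigment epithelium of NHP2 (11098 UMIs).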
